A study of Mus musculus with 18 samples.

Results

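The genes described here encode the enzymes that turn glucose into pyruvate and lactate, feed pyruvate into the citrate cycle, run that cycle and store phosphate energy as creatine phosphate. The list named 39 genes, and a probe set (a group of short probes for one transcript) was taken when the array's annotation gave it exactly 1 gene symbol and that symbol was on the list. This gave 90 of the 45101 probe sets on the array, for 37 of the 39 genes. Gpi1 and Eno1 had no such probe set. Gapdh was reached only through 3 control probe sets of the array and Pcx through 4 of these and 1 ordinary one, so that 83 ordinary probe sets of 36 genes entered the test across all probe sets.

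The mice were transgenic, of the strain C57BL/6J X DBA/2J, aged 11 and 14 weeks with no assignment of ages to samples in the sources used here. All animals carried a bacterial artificial chromosome in which the coding sequence of orexin, a neuropeptide of the lateral hypothalamus, had been replaced by a flag-tagged rat poly(A)-binding protein together with eGFP. The IP group held 9 arrays of RNA that was crosslinked to the tagged protein with 1% formaldehyde and pulled out of brain homogenate with anti-flag beads. The WB group held 9 arrays of whole brain total RNA. Both were amplified from 5 ng. The sources used here describe the RNA extraction of the precipitate in detail and not that of whole brain. A separate animal for each sample is not stated, so the p-values cover the variation among these 18 arrays, some of which may be technical. Neither a second transgenic line nor a precipitate from mice without the transgene was analysed here, so RNA that binds the beads without the tag cannot be told apart from RNA of the tagged cells.

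Glycolysis splits glucose in the cytosol, with hexokinase and phosphofructokinase as its regulated early steps and pyruvate kinase as its last. Lactate dehydrogenase interconverts pyruvate and lactate, and the pyruvate dehydrogenase complex commits pyruvate to the citrate cycle in mitochondria, whose dehydrogenases supply the respiratory chain. Brain depends on glucose, and several steps have isozymes with cell preferences there, such as enolase 2 in neurons and aldolase C in astrocytes and Purkinje cells. Creatine kinases buffer ATP where demand changes quickly, with a cytosolic brain form and a mitochondrial form.

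Median intensities per array were 154 to 203 in IP and 221 to 267 in WB, and 4 IP arrays (replicates 2, 5, 6 and 8) had array means of 924 to 994 against 760 to 828 in the other 5. The WB arrays had lower means, of 643 to 687. The sums of marker intensities below are not adjusted for these array means. Hcrt, the orexin gene itself, had intensities of 74, 308 and 491 in IP (lowest, median and highest) and 156, 248 and 388 in WB and did not pass the limma test (log2 difference 0.21, SE 0.28, adjusted p = 0.568). Markers of cell types moved in both directions. For comparison, 21.7% of all 18193 genes were higher and 21.7% lower by limma. Among genes with a mean log2 intensity of at least 10 these shares were 55.3% and 20.7%. Of 12 neuronal markers 6 were higher and 5 lower in IP, and the sum of their intensities ranged from 100034 to 180272 in IP and from 75154 to 102911 in WB. Of 12 astrocyte markers 5 were higher and 4 lower, with sums of 72622 to 143348 and 42922 to 56703. Of 11 orexin neuron markers 4 were higher and 2 lower (37965 to 60111 and 16348 to 20259), of 9 oligodendrocyte markers 4 and 3 (58794 to 112221 and 39927 to 54608), and of 10 microglial markers 3 and 4 (8812 to 15160 and 5098 to 7497). Of 9 endothelial markers 0 were higher and 6 lower (sums 1138 to 1868 in IP, 2453 to 2917 in WB), and of 5 red blood cell markers 0 were higher and 3 lower (450 to 1459 and 5180 to 16314). The part of these shifts in the results on the enzymes was not tested. In such bulk RNA, the cells that gave an RNA, its amount per cell and the share of it that was pulled out cannot be told apart.

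More enzyme genes were lower than higher in the precipitate, except with median centring of the arrays, where the order turned. Differences are IP minus WB in log2(intensity + 16), each gene being represented by its brightest probe set over the 18 arrays, and a gene is said to have risen or fallen where the limma test, adjusted over 45037 probe sets, gave an adjusted p under 0.05. Of 36 genes, 10 rose (27.8%), 18 fell (50.0%) and 8 did not pass. Over all 18193 genes on the same rule 21.7% were higher and 21.7% were lower. The median difference was -0.30 for the enzymes and 0.00 for all genes. Among probe sets of high intensity rises were more frequent: of 3550 genes with a mean log2 intensity of at least 10, 55.3% were higher and 20.7% lower, where 9 (34.6%) and 12 (46.2%) of the 26 enzyme genes in that range were. Of glycolysis with lactate dehydrogenase, 2 of 14 measured genes rose and 9 fell. Of the pyruvate dehydrogenase and citrate cycle genes, 8 of 20 rose and 7 fell, a list that includes the cytosolic forms Aco1, Idh1 and Mdh1. Both creatine kinases fell. All IP arrays lay above all WB arrays for 7 of the 36 genes and below them for 13, against 9.22% and 6.72% of all genes. These counts were not compared by a test.

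The count of rises depended on how arrays were scaled and on the probe set. Scaling on the arrays' hybridization controls moved the median of all probe sets from -0.23 to -1.05 and left 4 rises and 25 falls among the 36 genes, where 5.32% of all genes were higher and 55.7% lower. Median centring moved it to 0.20 and gave 16 and 12, against 39.0% and 11.4% of all genes. Quantile normalization moved it to 0.11 and gave 9 and 20, against 32.8% and 16.2%. Under all 4 scalings (the deposited one and these 3), 4 genes passed as higher, namely Pgk1, Ldhb, Cs and Aco1. A further 12 passed as lower under all 4, namely Pfkl, Pfkm, Aldoa, Aldoc, Pgam1, Eno2, Pkm, Ldha, Dld, Suclg1, Ckb and Ckmt1. The probe set of each gene was the same under all 4. Its choice used the IP arrays too and can favour probe sets high in IP, which rescaling does not address. Pgk1, Ldhb and Cs also had probe sets that fell, and the other Aco1 probe sets did not pass. Aldoa and Aldoc also had probe sets that rose. On the probe set brightest in WB, Pgk1 had -1.81. When the brightest probe set was chosen on the WB arrays alone, 7 genes rose and 23 fell (18.7% and 25.6% of all genes), and with the mean over a gene's probe sets 2 rose and 22 fell (12.5% and 29.0%).

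**Figure D1:**
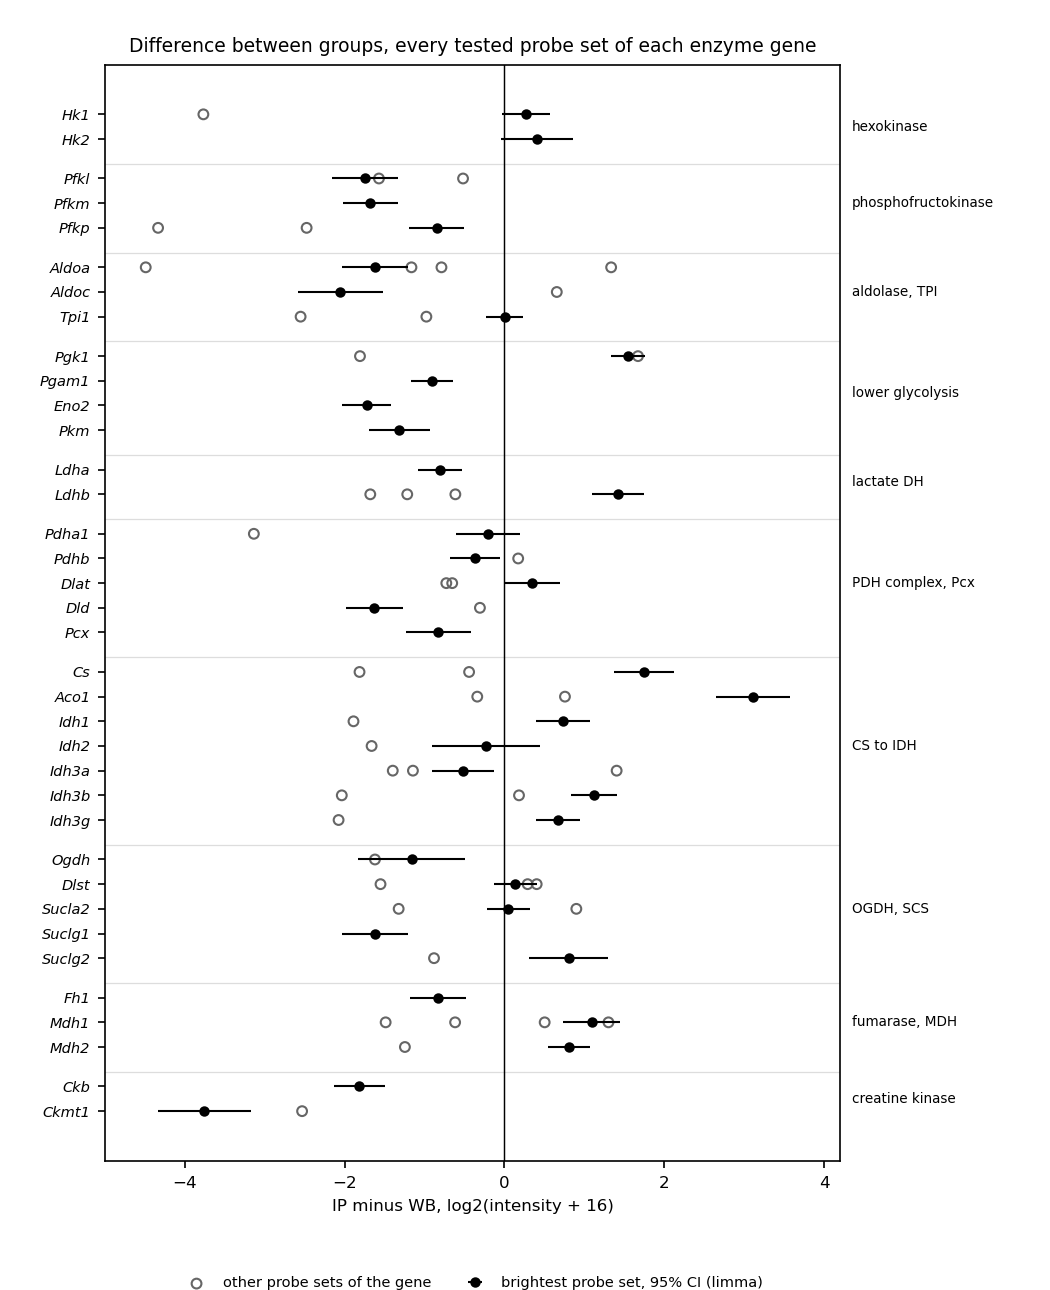
Difference between IP and WB (x axis, log2 of intensity + 16) for each tested probe set of 36 enzyme genes (y axis, grouped by pathway step, with abbreviated step names at the right: TPI triose phosphate isomerase, DH dehydrogenase, PDH pyruvate dehydrogenase, CS citrate synthase, IDH isocitrate dehydrogenase, OGDH oxoglutarate dehydrogenase, SCS succinyl-CoA ligase, MDH malate dehydrogenase). Filled points are the brightest probe set of a gene with its 95% confidence interval from limma and open circles the others. Many genes have points on both sides of 0, such as Aldoa from -4.49 to 1.34.

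Neither hexokinase passed the test on its brightest probe set. Hk1, the main hexokinase of brain, bound to mitochondria, gave intensities of 658, 893 and 1122 in IP (lowest, median and highest of 9 arrays) and 563, 757 and 832 in WB. The groups overlapped, although 6 of 9 IP values exceeded every WB value (difference 0.28, SE 0.15, adjusted p = 0.130). Its other probe set fell by 3.77 (SE 0.33, adjusted p = 1.29e-09), from a mean of 9.98 ± 0.29 in WB to 6.21 ± 1.02 in IP (log2, SD, n = 9 each). Hk2, the inducible form, had 427, 690 and 1291 in IP against 369, 570 and 818 in WB, again overlapping (0.41, SE 0.22, adjusted p = 0.132). Both hexokinases passed as higher with quantile normalization and median centring, and Hk1 as lower (-0.67) when scaled by the hybridization controls.

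All 3 phosphofructokinase subunits, the liver (Pfkl), muscle (Pfkm) and platelet (Pfkp) types that combine into the tetramer, fell. Pfkl had intensities of 139, 350 and 498 in IP and 984, 1084 and 1150 in WB. Every IP array was below every WB array, a 3.35-fold fall on the log2(intensity + 16) scale (-1.74, SE 0.20, adjusted p = 1.22e-07). Pfkm had 320, 659 and 889 in IP and 1647, 1957 and 2441 in WB, with no overlap (-1.68, SE 0.17, adjusted p = 9.36e-09). Pfkp had 721, 1664 and 2233 in IP and 2515, 2806 and 3447 in WB, also apart, with a smaller fall of 0.85 (SE 0.17, adjusted p = 0.000183). All 3 probe sets of Pfkp fell (-0.85, -2.48 and -4.34), and 2 of the 3 of Pfkl did, the third at -0.52 (adjusted p = 0.255). Pfkp did not pass with median centring (-0.42, adjusted p = 0.0545).

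Both brain aldolases, which split fructose bisphosphate, fell on their brightest probe sets. Aldoa, the general form, had 2583, 3593 and 9008 in IP and 9972, 13146 and 16952 in WB, so that the groups stood apart (3.08-fold lower, -1.62, SE 0.20, adjusted p = 3.53e-07). Of its 5 probe sets, 4 fell, by 0.79 to 4.49, and 1 rose by 1.34 (SE 0.14, adjusted p = 3.77e-08). Their IDs all end in _x_at, the class with probes that can match other sequences. Aldoc had 476, 1633 and 2997 in IP and 4501, 5277 and 6957 in WB, a 4.15-fold fall with no overlap (-2.05, SE 0.26, adjusted p = 4.35e-07). The other Aldoc probe set rose by 0.66 (SE 0.13, adjusted p = 0.000233), but had -0.30 when scaled on the hybridization controls. Tpi1, triose phosphate isomerase, had 4883, 6140 and 8436 in IP and 5687, 6036 and 7285 in WB, with 2 IP arrays above, 3 below and 4 within the WB range. Its difference of 0.00 (SE 0.11, 95% confidence interval -0.23 to 0.24, adjusted p = 0.992) became -0.73 with quantile normalization, -0.96 with the hybridization controls and 0.43 with median centring, each past the threshold. The other 2 Tpi1 probe sets fell, by 0.98 and 2.55.

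In lower glycolysis Pgk1 rose and Pgam1, Eno2 and Pkm fell. Pgk1, phosphoglycerate kinase, which makes the first ATP of the pathway, had 14195, 15234 and 18032 in IP and 4633, 5313 and 6577 in WB. Its IP arrays were all above the WB arrays and varied little (log2 SD 0.15 in IP, 0.17 in WB), and the rise was 2.92-fold (1.55, SE 0.10, adjusted p = 8.37e-12). A second probe set of Pgk1 rose by 1.67, and the third fell by 1.81 (SE 0.16, adjusted p = 1.45e-09). The 2 that rose have _x_at IDs and the one that fell has not. Pgam1, phosphoglycerate mutase, had 4578, 7087 and 10296 in IP against 11644, 13656 and 14658 in WB, with no overlap (-0.90, SE 0.13, adjusted p = 2.11e-06). Eno2, the neuronal enolase, had 2564, 4183 and 6392 in IP against 12097, 13756 and 16180 in WB. The groups were well separated, at a 3.30-fold fall (-1.72, SE 0.15, adjusted p = 1.02e-09). Pkm, pyruvate kinase, had 1257, 1676 and 4588 in IP and 3770, 4746 and 5721 in WB, and 8 of 9 IP values were under every WB value (-1.32, SE 0.18, adjusted p = 2.29e-06). The exception was IP replicate 1, which was also the highest IP array for Aldoa, Aldoc, Tpi1, Eno2 and Ldha. Pgam1, Eno2 and Pkm had 1 probe set each, so no other probe set could be set beside their values.

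The lactate dehydrogenases moved apart on their brightest probe sets. Ldha, the subunit of the muscle type, had 1430, 2055 and 3128 in IP and 3152, 3718 and 5019 in WB, just short of overlapping, and fell by 0.81 (SE 0.13, adjusted p = 2.28e-05) on its only probe set. Ldhb, the subunit of the heart type, had 17160, 23054 and 39622 in IP and 8047, 9986 and 10664 in WB, a 2.68-fold rise with no overlap (1.42, SE 0.16, adjusted p = 7.92e-08). The other 3 Ldhb probe sets fell, however (-0.61, -1.22 and -1.68), all past the threshold, and the mean over the 4 was lower in IP (-0.52, adjusted p = 0.000212).

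**Figure D2:**
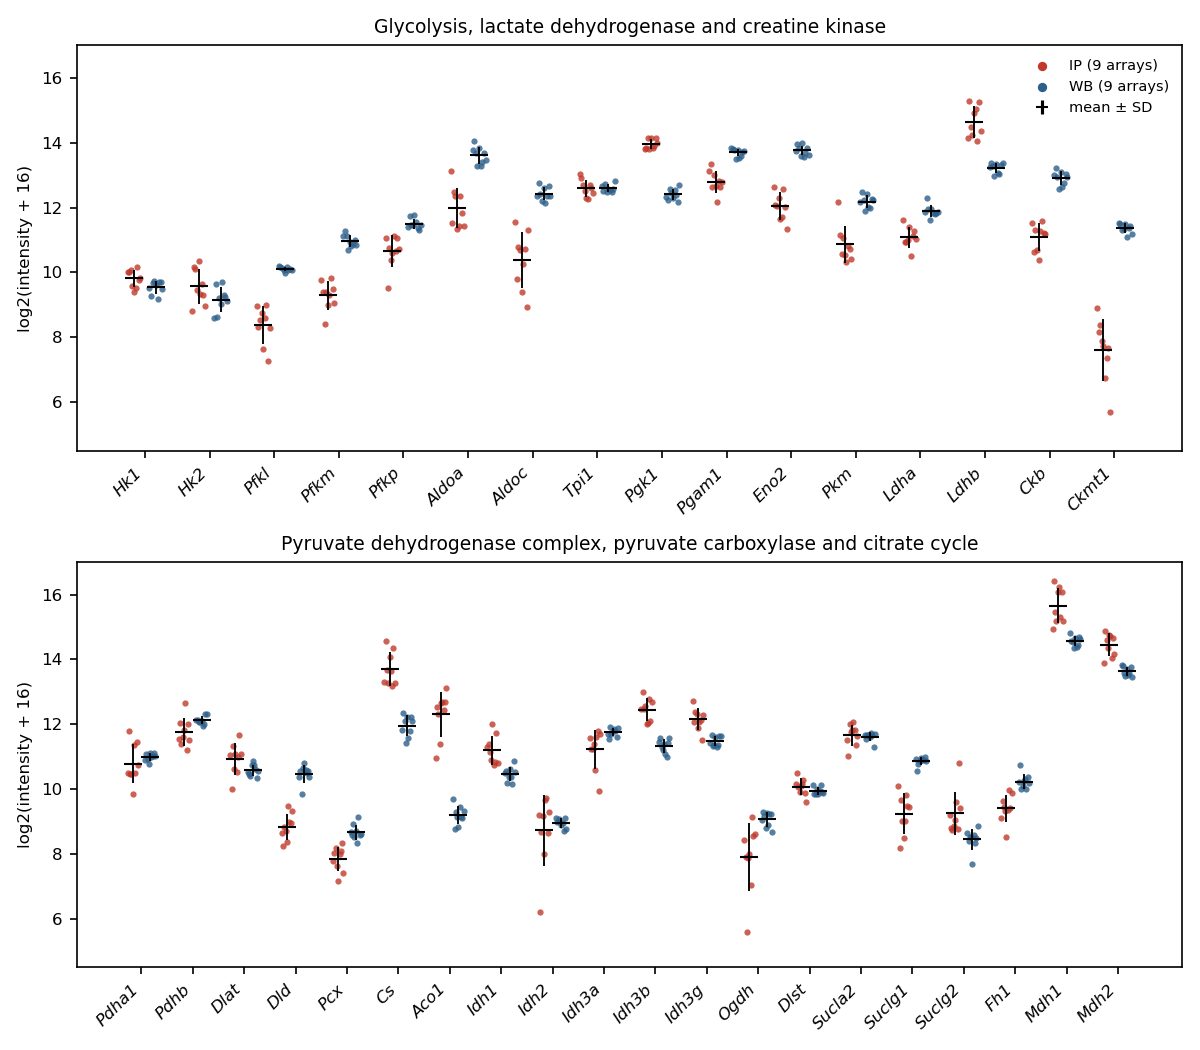
Log2(intensity + 16) of the brightest probe set of each of 36 enzyme genes on each of 9 IP (red) and 9 WB (blue) arrays, with bars for mean ± SD. Levels may be compared between groups for 1 gene but not between genes. For Pgk1, Ldhb, Cs and Aco1 all IP arrays lie above all WB arrays, and for Pfkl, Eno2, Ckb and Ckmt1 all lie below.

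Of the pyruvate dehydrogenase complex, Dld and Pdhb fell on their brightest probe sets and Pdha1 and Dlat did not pass. Pdha1, the alpha subunit of the decarboxylase component, had 909, 1425 and 3500 in IP and 1730, 2048 and 2198 in WB, overlapping, with 3 IP arrays above and 6 below all WB arrays (-0.20, SE 0.19, adjusted p = 0.416). Its other probe set fell by 3.14 (SE 0.50, adjusted p = 1.49e-05). Pdhb, the beta subunit, had 2349, 3114 and 6448 in IP and 3893, 4404 and 5116 in WB. It passed narrowly (-0.37, SE 0.15, adjusted p = 0.0493), lost its call in 14 of 18 fits that left out 1 array (-0.48 to -0.30), with the replicate number as a block (adjusted p = 0.0585), and turned to 0.06 with median centring. The other Pdhb probe set did not pass (0.17, adjusted p = 0.570), nor did the mean over its probe sets (-0.098, adjusted p = 0.530). Dlat, the acetyltransferase component, did not pass on its brightest probe set (0.34, SE 0.17, adjusted p = 0.104), while its other 2 fell by 0.65 and 0.73. Dld, the dehydrogenase shared with the oxoglutarate complex, had 286, 440 and 701 in IP against 899, 1474 and 1773 in WB, with no overlap. It fell by 1.63 (SE 0.17, adjusted p = 3.59e-08), while its other, dim probe set did not pass (-0.31, adjusted p = 0.274). Pcx, pyruvate carboxylase, which refills the cycle with oxaloacetate and is known as an astrocyte enzyme in brain, had 127, 238 and 306 in IP and 303, 375 and 542 in WB on its ordinary probe set. With 8 of 9 IP arrays below all WB arrays it fell by 0.83 (SE 0.20, adjusted p = 0.00139), a call not kept with quantile normalization or median centring (-0.44 and -0.40).

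Cs and Aco1 rose on their brightest probe sets. Cs, citrate synthase, had 9314, 12724 and 24355 in IP and 2747, 4343 and 5140 in WB, a 3.36-fold rise with no overlap (1.75, SE 0.18, adjusted p = 2.38e-08), while its other 2 probe sets fell by 0.44 and 1.81. Aco1, the cytosolic aconitase that doubles as an iron regulatory RNA-binding protein, showed the largest rise of the 36 genes on their brightest probe sets. It had 1950, 5891 and 8896 in IP and 417, 551 and 802 in WB, an 8.64-fold difference (3.11, SE 0.22, adjusted p = 4.51e-11). That probe set has an _x_at ID, and the 2 other Aco1 probe sets did not pass (-0.34, adjusted p = 0.220, and 0.76, adjusted p = 0.152).

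The isocitrate dehydrogenases split between the NADP-dependent forms (Idh1 in the cytosol, Idh2 in mitochondria) and the 3 subunits of the NAD-dependent enzyme of the cycle. Idh1 had 1681, 2223 and 4090 in IP and 1133, 1439 and 1853 in WB, with 6 IP arrays above all WB arrays (0.74, SE 0.16, adjusted p = 0.000720), against a fall of 1.89 on its other probe set. Idh2 did not pass (-0.23, SE 0.33, adjusted p = 0.605), and its IP arrays spread widely, from 6.20 to 9.72 on the log2 scale. Idh3a, the catalytic subunit, had 957, 2683 and 3538 in IP and 2993, 3519 and 3819 in WB, overlapping in 4 IP arrays (-0.52, SE 0.19, adjusted p = 0.0274). Its call was not kept without IP replicate 5 (-0.44, adjusted p = 0.0573), without the 4 IP arrays of highest mean (-0.21) or with median centring (-0.10). Nor was it kept with no intensity trend in limma (adjusted p = 0.0565) or on the mean over probe sets (-0.415, adjusted p = 0.0558). Idh3b, a partner subunit, had 4067, 5681 and 8105 in IP and 2014, 2690 and 3056 in WB, standing apart at 2.17-fold higher (1.12, SE 0.14, adjusted p = 3.77e-07). Idh3g, the other partner, had 2893, 4475 and 6676 in IP and 2501, 2718 and 3236 in WB, with 8 IP arrays above all WB arrays (0.67, SE 0.13, adjusted p = 0.000185). Among the remaining probe sets of these 3 subunits 4 fell, 1 rose and 1 did not pass, the falls reaching -2.04 for Idh3b and -2.08 for Idh3g. With scaling on the hybridization controls the difference was 0.16 for Idh3b, -0.29 for Idh3g and -0.22 for Idh1, none past the threshold, and Idh3g did not pass with quantile normalization either (0.27, adjusted p = 0.0692). Idh3b had 0.18 on the probe set that was brightest in WB (adjusted p = 0.471).

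Of the next steps, Ogdh and Suclg1 fell. Ogdh, the decarboxylase of the oxoglutarate complex, had 32, 238 and 550 in IP and 389, 562 and 613 in WB, with 8 of 9 IP arrays below all WB arrays (-1.16, SE 0.33, adjusted p = 0.00518), and its dimmer probe set fell by 1.62. Its call was not kept with median centring (-0.74, adjusted p = 0.0624). Dlst, the succinyltransferase of that complex, did not pass on its brightest probe set (0.14, SE 0.13, adjusted p = 0.426), nor on 2 others, and fell by 1.55 on the fourth. Suclg1, the alpha subunit common to both succinyl-CoA ligases, had 272, 675 and 1068 in IP against 1497, 1900 and 2001 in WB, a 3.08-fold fall with no overlap (-1.62, SE 0.20, adjusted p = 4.06e-07). Sucla2, the beta subunit for ADP, did not pass (0.05, SE 0.13, adjusted p = 0.791), whereas Suclg2, the one for GTP, rose by 0.80 (SE 0.24, adjusted p = 0.00823). Suclg2 had 412, 507 and 1780 in IP and 188, 347 and 450 in WB, with 5 IP arrays above all WB arrays, and its second probe set fell by 0.88. It had -0.13 with scaling on the hybridization controls.

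The malate dehydrogenases rose with the deposited scaling, but not with every other. Mdh1, the cytosolic form of the malate-aspartate shuttle, had 31199, 44618 and 87767 in IP and 20872, 24301 and 28757 in WB, with no overlap (1.09, SE 0.17, adjusted p = 1.28e-05). Mdh2, the mitochondrial form of the cycle, had 15271, 24894 and 29900 in IP and 11303, 12287 and 14598 in WB, also apart (0.81, SE 0.13, adjusted p = 1.32e-05). With quantile normalization Mdh1 had 0.07 and did not pass, and Mdh2 passed as lower (-0.34, adjusted p = 0.000236). Scaled on the hybridization controls they had 0.13 and -0.16, neither past the threshold. Of the 5 Mdh1 probe sets 3 rose, 1 fell by 1.49 and 1 did not pass, and the second of Mdh2 fell by 1.25. Of the 3 Mdh1 probe sets that rose, 1 was dim, at 20 to 60 in WB. The mean over probe sets passed neither for Mdh1 (0.16, limma adjusted p = 0.375) nor for Mdh2 (-0.22, limma adjusted p = 0.118). Fh1, fumarase, had 352, 663 and 984 in IP and 998, 1165 and 1687 in WB, just without overlap, and fell by 0.83 (SE 0.17, adjusted p = 0.000310, with median centring -0.40 and 0.0505).

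Both creatine kinases fell. On the probe sets brightest over the 18 arrays the fall of Ckmt1 was the largest of the 36 genes, while other probe sets of Aldoa (-4.49), Pfkp (-4.34) and Hk1 (-3.77) fell further. Ckb, the cytosolic brain form, had 1331, 2339 and 3049 in IP and 6048, 7871 and 9529 in WB, 3.52-fold lower with no overlap (-1.82, SE 0.15, adjusted p = 7.18e-10). Ckmt1, the mitochondrial form, had 35, 194 and 461 in IP and 2159, 2637 and 2929 in WB, a 13.5-fold fall (-3.75, SE 0.28, adjusted p = 1.05e-10). Its second probe set fell by 2.53 (SE 0.30, adjusted p = 1.67e-07). The highest IP array on the brighter one, at 461, was far below the lowest WB array, at 2159, and both genes passed as lower under all 4 scalings.

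Gapdh, glyceraldehyde phosphate dehydrogenase, was measured by 3 control probe sets named for the 5′ part, middle and 3′ part of its transcript. Its 5′ probe set had intensities of 223, 472 and 707 in IP and 2939, 3647 and 4945 in WB, clearly apart (-3.05, SE 0.19, adjusted p = 5.26e-12, in a fit that kept these control probe sets). The middle fell by 3.40 (SE 0.16, adjusted p = 5.32e-14), from 4490, 5640 and 6789 in WB to 340, 453 and 860 in IP. The 3′ probe set fell by only 0.48 (SE 0.14, adjusted p = 0.00886), with 5277, 8173 and 10448 in IP and 8205, 10818 and 13927 in WB, which overlapped, and with median centring it did not pass (-0.05). Within each array the log2 ratio of 3′ over 5′ was 3.33 to 5.45 in IP and 1.33 to 1.78 in WB, so that no array of either group entered the other's range. The ratio differed by 2.58 (exact permutation test over 48620 divisions of the arrays, two-sided p = 4.11e-05, the smallest they can give, 8.23e-05 adjusted over the 4 transcripts with such probe sets).

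For Pcx the order along the named positions was the opposite. Its 5′ control probe set did not pass (0.32, SE 0.24, adjusted p = 0.304; 155, 377 and 599 in IP, 194, 310 and 372 in WB), and neither did the 2 middle ones (-0.30 and -0.58). The 5′ one passed as higher with quantile normalization (0.68) and median centring (0.74). The 3′ one fell by 2.09 (SE 0.30, adjusted p = 3.49e-06), with 22, 33 and 183 in IP and 190, 247 and 331 in WB. Its 3′ over 5′ log2 ratio was -3.78 to -1.63 in IP and -0.91 to 0.35 in WB, a difference of -2.41 (exact permutation p = 4.11e-05, adjusted 8.23e-05). For Actb, cytoplasmic actin, and Tfrc, the transferrin receptor, which have control probe sets of the same kind, this difference was -0.19 and 0.06 (exact permutation p = 0.249 and 0.777, adjusted 0.333 and 0.777). The 3′ over 5′ ratio thus shifted in opposite directions for the 2 genes. The positions are those in the names of the control probe sets, and neither the place of the probes on the transcript nor their strand was checked here.

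**Figure D3:**
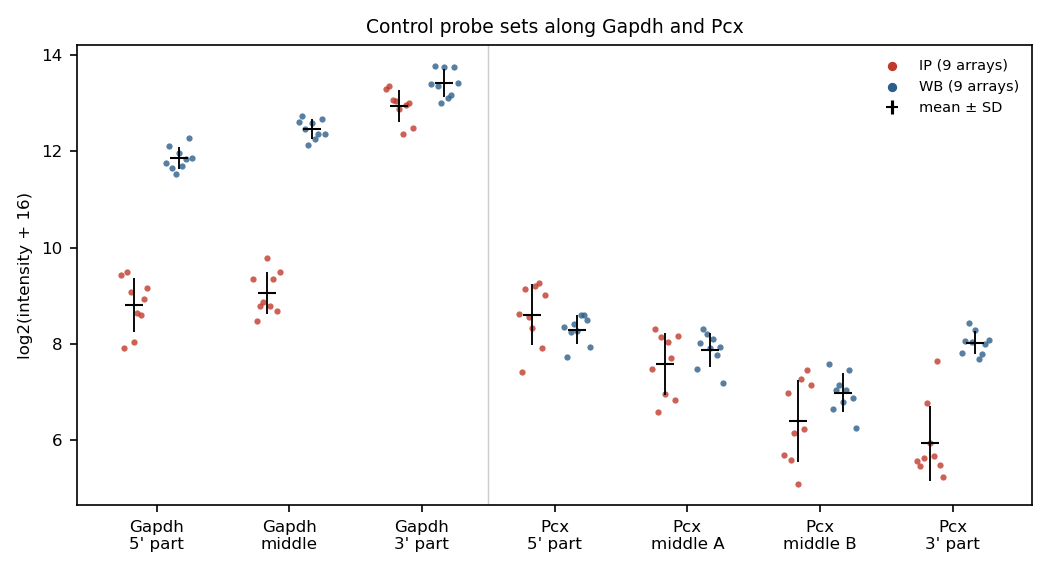
Log2(intensity + 16) of the array's control probe sets for the 5′, middle and 3′ parts of Gapdh and Pcx on 9 IP (red) and 9 WB (blue) arrays, with bars for mean ± SD. IP lies far below WB at the 5′ and middle parts of Gapdh (differences -3.05 and -3.40) and at the 3′ part of Pcx (-2.09), while the 5′ and middle parts of Pcx overlap.

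The ordinary probe sets also differed in direction within many genes, and whether their place on the transcript played a part was not tested. Of 83, 17 were higher (20.5%), 49 lower (59.0%) and 17 did not pass, where 14.2% of all 45037 probe sets were higher and 30.8% lower. Arrays of the groups did not overlap for 10 higher and 30 lower ones, against 5.22% and 10.3% of all probe sets. Of the 47 that were not the brightest of their gene, 7 were higher and 31 lower. The share among such probe sets of all genes was not computed, so this skew cannot be called particular to the enzymes. In 13 of 26 enzyme genes with several probe sets (50.0%), at least 1 passed as higher and another as lower: Aldoa, Aldoc, Pgk1, Ldhb, Cs, Idh1, Idh3a, Idh3b, Idh3g, Sucla2, Suclg2, Mdh1 and Mdh2. Over all 9010 genes with several probe sets this held for 1985, a figure that also depends on how many probe sets a gene has and how bright they are. Under the other scalings the number was 12 (quantile), 15 (median centring) and 4 (hybridization controls), or 46.2%, 57.7% and 15.4%, against 20.3%, 22.2% and 9.27% of all genes with several. All probe sets fell for 3 genes with several, Pfkp, Ogdh and Ckmt1 (11.5%, against 7.69% of all genes with several), and all rose for 0 (110 of all 9010). The 37 probe sets with a plain _at ID gave 3 rises and 21 falls, and the 46 with _a, _s or _x in the ID, which mark sequence shared between transcripts or open to other matches, gave 14 and 28. Over the whole array 11.6% of plain and 24.9% of the other probe sets were higher, and 30.8% and 30.6% lower. When genes were represented by plain probe sets only, 1 enzyme gene rose (Aldoc) and 14 fell, against 16.9% and 23.8% of all genes so represented. Hk1, Aldoa, Tpi1, Pgam1, Eno2, Ldha, Ldhb, Pcx, Idh1, Suclg2, Fh1, Mdh2, Ckb and Ckmt1 have no plain probe set and are not counted.

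Ratios between partner enzymes within an array do not move when all its values are multiplied by 1 factor, apart from the added 16, so they show unequal change with little dependence on such scaling (quantile normalization is not of that kind). Of 14 pairs of isozymes or subunits, 9 ratios differed between the groups by an exact permutation test with Benjamini-Hochberg adjustment over the pairs (two-sided, smallest adjusted value 0.000144). The level of a ratio has no meaning across probe sets, only its shift. Ckb over Ckmt1 had log2 ratios of 2.47 to 5.51 in IP and 1.22 to 1.75 in WB, a shift of 1.94 (adjusted p = 0.000144 by the exact test). So the mitochondrial creatine kinase fell 3.83-fold more than the cytosolic one, and the shift was 0.72 with the other Ckmt1 probe set. Ldha over Ldhb shifted by -2.23, from -1.51 to -1.08 in WB to -4.55 to -2.51 in IP, but by up to 0.87 in the other direction with other Ldhb probe sets (2 of 4 combinations kept the sign).

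Within the NAD-dependent isocitrate dehydrogenase, the ratio of Idh3a to Idh3b shifted by -1.64 and that to Idh3g by -1.19, both without overlap between groups (adjusted p = 0.000144 each, exact test). The sign held in 6 of 12 and 3 of 8 combinations of probe sets, and on the mean over probe sets neither passed (-0.17 and 0.29). Idh3b over Idh3g shifted by 0.45 (exact test, adjusted p = 0.00461), but by -0.49 with the probe sets that were brightest in WB. Pfkp fell less than both other phosphofructokinases on the brightest probe sets, with shifts of -0.83 for Pfkm over Pfkp (adjusted p = 0.00494) and 0.90 for Pfkp over Pfkl (adjusted p = 0.00461, exact tests), while Pfkm over Pfkl did not pass (0.06, adjusted p = 0.767). On the mean over probe sets these 2 shifts turned to 0.87 and -1.28, and with quantile normalization that of Pfkp over Pfkl was 0.44 and did not pass (adjusted p = 0.0870, exact test). Sucla2 over Suclg2 shifted by -0.75 (exact test, adjusted p = 0.00842), a call lost without the 4 IP arrays of highest mean (-0.43). It was also lost on the mean over probe sets (-0.086, exact test, adjusted p = 0.729), and its sign held in 3 of 6 combinations. Mdh1 over Mdh2 shifted by 0.28 (exact test, adjusted p = 0.0218), which was lost with the replicate number as a block (adjusted p = 0.0851) and without those 4 arrays (0.08). Hk1 over Hk2, Aldoa over Aldoc, Pdha1 over Pdhb and Idh1 over Idh2 did not pass (-0.13, 0.43, 0.16 and 0.96, with adjusted p of 0.686, 0.116, 0.417 and 0.0692 by the exact test). Some of these passed under alternatives. Hk1 over Hk2 did so on the mean over probe sets (-2.15) and with the probe sets brightest in WB (-4.18). Aldoa over Aldoc passed on the mean over probe sets, turned to -0.65. Pdha1 over Pdhb passed with quantile normalization (0.56) and, turned, on the mean over probe sets (-1.57). Only Ckb over Ckmt1, of the 9 that passed, kept its sign in every combination of probe sets.

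**Figure D4:**
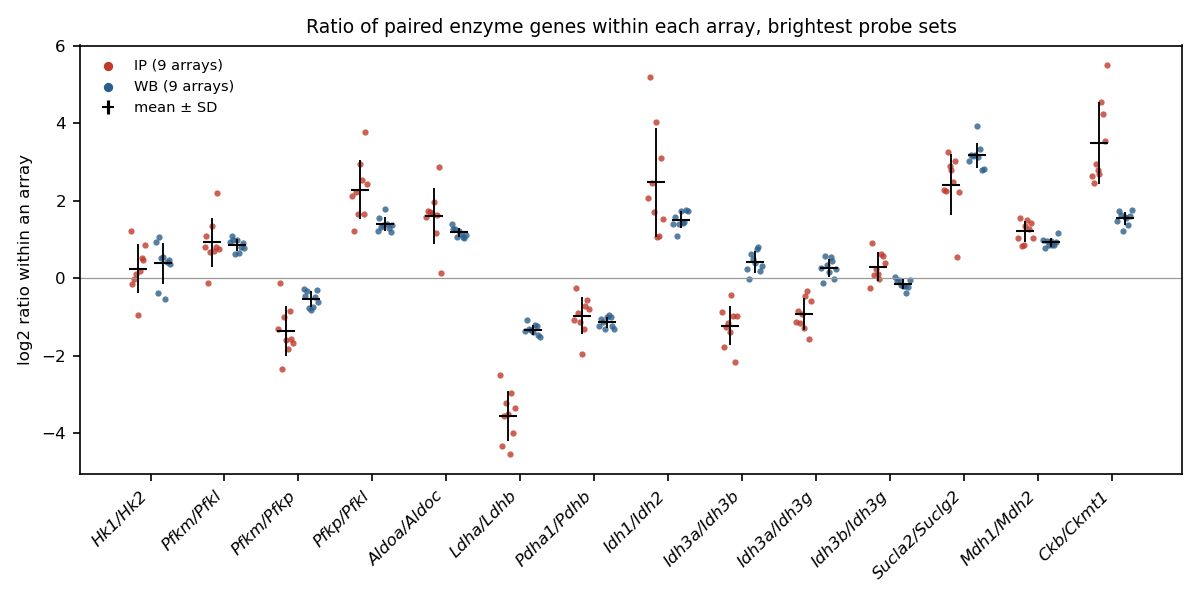
Log2 ratio within each array (y axis) of the brightest probe sets of 14 pairs of isozymes or subunits, on 9 IP (red) and 9 WB (blue) arrays, with bars for mean ± SD. IP and WB arrays do not overlap for Ldha/Ldhb, Idh3a/Idh3b, Idh3a/Idh3g and Ckb/Ckmt1.

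The enzymes varied more between IP arrays than between WB arrays, the median over genes of the log2 SD being 0.47 and 0.17 (0.66 and 0.31 over all genes). The extremes were spread over the IP arrays: the lowest IP value fell to replicate 5 in 7 of 36 genes and to replicate 2 in 6, and the highest to replicate 1 in 9 and to replicates 2 and 7 in 8 each. In WB, replicate 4 was lowest in 11 genes and replicate 2 highest in 12. Without the 4 IP arrays of highest mean, 12 enzyme genes rose and 18 fell. The share over all genes was not computed for that fit, so these counts have no background beside them.

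Genes that feed or flank these pathways, taken as whole lists for each pathway, were more often lower than higher too. With median centring the order turned (14 higher, 11 lower), where 39.0% of all genes were higher and 11.4% lower. Of 53 measured, 8 rose (15.1%) and 22 fell (41.5%), against 21.7% and 21.7% of all genes, with a median of -0.27. Among 7 transporters of glucose, lactate and pyruvate 1 rose and 4 fell. Slc2a1, the glucose transporter of the blood-brain barrier and astrocytes, rose by 1.64 (adjusted p = 8.77e-10, but -2.11 on its plain probe set and 0.18, not past the threshold, on the mean over probe sets). Bsg, basigin, the chaperone of lactate transporters, fell by 2.84 (adjusted p = 9.61e-12) and Mpc1, of the mitochondrial pyruvate carrier, by 1.38 (adjusted p = 1.23e-06). Of 7 shuttle genes 0 rose and 5 fell, with Got1 and Got2, the aspartate aminotransferases, at -1.58 and -1.43.

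Among 10 regulators of phosphofructokinase and pyruvate dehydrogenase 3 rose and 4 fell. Tigar, a fructose bisphosphatase, rose by 1.12 and the pyruvate dehydrogenase kinase Pdk1 by 0.89 (adjusted p = 1.72e-07 and 0.000493), but when scaled by the hybridization controls neither passed (0.16 and -0.06), and Tigar had 0.10 on the mean over its probe sets (adjusted p = 0.657), while Pdk3 and Pdk2 fell by 1.70 and 1.30. Of 8 other citrate cycle genes 1 rose and 4 fell. Sdha, the flavoprotein of succinate dehydrogenase, had 0.62 (adjusted p = 0.000214) but -0.50 with quantile normalization and -0.35 with the hybridization controls, and Sdhb, its iron-sulfur subunit, fell by 0.95. In the pentose phosphate pathway Pgd, phosphogluconate dehydrogenase, rose by 2.28 and Tkt, transketolase, by 1.06 among 6 genes, of which 1 fell. Pgd passed as higher under all 4 scalings, and Tkt did not with the hybridization controls (0.10) and had -1.39 on its plain probe set. Of 10 isozymes known from muscle, testis or liver 0 rose and 2 fell, and of 5 gluconeogenesis genes 1 rose and 2 fell. Some of these falls were marginal: Pgam2 lost its call in 10 of 18 fits that left out 1 array, G6pc in 12 and Pgls, of the pentose phosphate list, in 8. Such fits gave 18 to 21 falls among the 53 genes in place of 22.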

How the data were processed

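The deposited values are intensities on a linear scale, made by the authors; the submitters' processing notes name MAS5 and no version of it. The mean of each array without its lowest and highest 2% was 500, so arrays had been scaled to a common mean. Depth does not apply to arrays, and their number limits the precision. Groups and replicate numbers came from the labels.

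The re-analysis took log2(intensity + 16), so folds understate changes of dim probe sets. It left out 64 array controls and fitted 45037 probe sets with limma 3.58.1 in R 4.3.3, with an intensity trend and Benjamini-Hochberg adjustment. Of these, 34945 had 1 gene symbol, 932 several and 9160 none listed. The symbols of all 83 ordinary enzyme probe sets matched a reference table by Entrez ID. Within-array ratios used exact permutation. The procedure was tested on simulated data. Same-numbered arrays did not deviate together (correlations -0.05 to 0.08). Any of the 39 genes could be named, and up to 2 rises and 2 falls of each neighbouring list. Members and lists were chosen with earlier results of these data known. The alternatives are given in the closing part. No protein sequence was used here.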

Additional observations from a re-analysis of the deposited data

Results flagged for a closer look

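In 13 of 114 groups of 9 arrays tested, 1 array stood far from the others by Dixon's criterion (gap over range above 0.493), where chance gives about 1 in 20. Values are log2(intensity + 16) of the brightest probe set.

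In IP, replicate 2 was lowest for Pfkp at 9.53 (next array 10.40) and for Idh2 at 6.20 (next 7.98). IP replicate 1 was highest for Pkm at 12.17 (next 11.15), and IP replicate 8 was highest for Suclg2 at 10.81 (next 9.58). In WB, replicate 2 was highest for Ldha at 12.30 (next 11.96) and for Fh1 at 10.73 (next 10.36), and lowest for Suclg1 at 10.56 (next 10.78). WB replicate 5 was lowest for Pfkl at 9.97 (next 10.08) and for Suclg2 at 7.67 (next 8.34). WB replicate 3 was lowest for Dld at 9.84 (next 10.35) and WB replicate 8 for Sucla2 at 11.28 (next 11.55). The log2 ratio of Sucla2 to Suclg2, which uses the same values, was lowest in IP replicate 8 at 0.56 (next 2.22) and highest in WB replicate 5 at 3.92 (next 3.34). No call on these genes or this ratio was lost when the array in question was left out, and Idh2, which had no call, went from -0.23 to 0.09 without IP replicate 2.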

How the results depend on the processing

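The cause of each change below was not tested. Counts are given as higher and lower. Median centring gave 16 higher enzyme genes, 28 higher enzyme probe sets and 14 and 11 neighbouring pathway genes, and scaling on the hybridization controls 4, 5 and 3 and 36. The mean over probe sets gave 2 higher enzyme genes and 5 higher neighbouring genes, plain _at probe sets 1 and 5, with 2 isozyme ratios higher and 2 lower. Of all genes 12.5% were higher on the mean over probe sets and 16.9% on plain _at probe sets. Leaving out 1 array gave 10 to 11 higher and 16 to 18 lower enzyme genes. The share over all genes was not computed for those fits. Signs turned as follows. With quantile normalization Tpi1 had -0.73, Idh2 0.12, Sucla2 -0.33, Mdh2 -0.34, Sdha -0.50, Pfkm/Pfkl -0.13 and the Pcx middle control (MA) 0.14. With median centring Pdha1 had 0.22, Pdhb 0.057, Idh2 0.20 and that control 0.12. With the hybridization controls Hk1 had -0.67, Hk2 -0.54, Tpi1 -0.96, Dlat -0.61, Idh1 -0.22, Idh3g -0.29, Dlst -0.82, Sucla2 -0.91, Suclg2 -0.13, Mdh2 -0.16, Pdk1 -0.056, Sdha -0.35 and the Pcx 5′ control -0.59. With the mean over probe sets Hk1 had -1.75, Tpi1 -1.18, Ldhb -0.52, Dlat -0.35, Cs -0.17, Idh1 -0.58, Idh3b -0.24, Idh3g -0.70, Dlst -0.18, Sucla2 -0.13, Suclg2 -0.040, Mdh2 -0.22, Sdha -0.15, Tkt -0.095, Pck2 0.012, Pfkm/Pfkl -0.40, Pfkm/Pfkp 0.87, Pfkp/Pfkl -1.28, Aldoa/Aldoc -0.65, Pdha1/Pdhb -1.57 and Idh3a/Idh3g 0.29. With plain _at probe sets Aldoc had 0.66, Pgk1 -1.81, Cs -0.44, Aco1 -0.34, Idh3b -2.04, Idh3g -2.08, Mdh1 -1.49, Slc2a1 -2.11, Sdha -0.70, Tkt -1.39, Pck2 1.40, Pfkm/Pfkl -1.16, Pfkp/Pfkl -0.33, Idh3a/Idh3b 0.89 and Idh3a/Idh3g 0.93. With 64 added in place of 16, Pfkm/Pfkl had -0.006264. Leaving out 1 array moved Tpi1 between -0.054 and 0.044, Idh2 between -0.35 and 0.089, Sucla2 between -0.00083 and 0.13, Hk1/Hk2 between -0.25 and 0.019 and Pfkm/Pfkl between -0.10 and 0.19. The next alternatives were chosen after seeing the data. Without the 4 IP arrays of highest mean Idh2 had 0.26, Hk1/Hk2 0.16 and Pfkm/Pfkl -0.27. With probe sets brightest in WB, Hk1 had -3.77, Pgk1 -1.81, Dlat -0.65, Idh1 -1.89, Idh1/Idh2 -0.23 and Idh3b/Idh3g -0.49. Adding 1 in place of 16, a brightness filter at 100, no intensity trend and array weights turned no sign. With no intensity trend Pdhb (limma adjusted p = 0.102) and Idh3a (limma adjusted p = 0.0565) lost their calls. Array weights took away the calls of Pgam2 and G6pc, and Dlat passed as higher (0.36). The replicate number as a block gave 10 higher and 17 lower enzyme genes, against 21.3% and 21.3% of all genes. In the deviations of same-numbered arrays, 2 of 9 IP arrays correlated best with their own number. Low signal limits dim probe sets such as those of Ogdh and Ckmt1 in IP.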
